A study of Mus musculus with 8 samples.

Results

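The comparison described here is between mouse embryonic fibroblasts (MEFs) treated with CHIR-99021, an inhibitor of glycogen synthase kinase 3 (GSK3), and MEFs treated with LY-364947, an inhibitor of the type I TGF-beta receptor kinase. It used 4 of the 8 RNA-seq libraries of the study, 2 per compound, chosen by the compound in the sample labels, which write the second compound as LY-364747. The study ranked compounds by how closely their expression signatures resembled those of a wanted change of cell state, and the treated MEFs were meant to take on features of hepatocytes. The other 4 libraries were 2 of MEFs labelled as controls and 2 of MEFs treated with carbidopa, an inhibitor of aromatic L-amino acid decarboxylase, and they were used to give the levels outside the comparison. All cells were wild type and from C57BL/6J embryos. They were plated at passage 3 to 5, left to attach for 2 hours and given 10 µM of compound, with a change of medium every 3 days. CHIR-99021, LY-364947 and carbidopa were thus compared at the same dose. The time of treatment before RNA was taken for sequencing is not given in the sources used here, which state one for quantitative PCR alone, nor is the time in culture of the control MEFs, so a difference from MEFs cannot be told apart from a difference in time in culture. MEF cultures hold cells of many embryonic tissues, and the sex-linked RNA Xist and the Y-linked gene Ddx3y were both present in every library, so each held cells of both sexes.

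GSK3 is a kinase of the complex that marks beta-catenin for destruction. When it is inhibited, beta-catenin accumulates and, with TCF/LEF factors, turns on Wnt target genes, and glycogen synthase is relieved of an inhibitory phosphorylation. The TGF-beta receptor kinase phosphorylates SMAD2 and SMAD3, which drive genes of matrix, contraction and their own feedback, and fibroblasts make TGF-beta themselves, so that an inhibitor lowers a signal already present in culture. In this general account, a GSK3 inhibitor switches a pathway on and a TGF-beta receptor inhibitor switches another off. RNA levels alone were measured here, not the activity of either pathway.

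Total counts per library were 16807175 and 16816370 with CHIR-99021 and 17341994 and 17960556 with LY-364947, within 15039566 to 20504338 over all 8 libraries. Levels are given as counts divided by the library's size factor (normalized counts), in the order library 1 and library 2. They compare libraries for 1 gene and not genes with each other, because they are not corrected for gene length. On log2(normalized count + 1) over the genes tested, the Euclidean distance between a CHIR-99021 and a LY-364947 library was 75.4 to 90.7, against 56.1 between the CHIR-99021 libraries and 52.8 between the LY-364947 libraries. The mean distance between compounds was 1.51 times that within them. In these bulk RNA samples, fewer cells of a type and less RNA per cell cannot be told apart.

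The compounds left MEFs with different expression of many genes. Of 15154 genes tested by edgeR's quasi-likelihood test, 2143 (14.1%) differed at a Benjamini-Hochberg adjusted p under 0.05. With CHIR-99021, 978 were higher (6.45%) and 1165 lower (7.69%) than with LY-364947. Differences of at least 2-fold were called at 740 genes (4.88%) and lay mostly on the lower side, with 191 genes higher (1.26%) and 549 lower (3.62%). The median log2 fold change over all genes tested was 0.01. With 2 libraries against 2, the groups did not overlap for 64.3% of all genes tested, so that a gap between the groups is by itself common here. Nothing in the labels says that the 2 libraries of a group came from separate cultures, so the p-values measure only the spread between these samples. The counts of calls depended on single libraries. Without CHIR-99021 library 1, CHIR-99021 library 2, LY-364947 library 1 or LY-364947 library 2 they were 663, 1200, 669 and 1031, and without carbidopa library 1, which enters the estimate of the spread, 4228.

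Few genes were called between carbidopa and LY-364947. On the same distance, carbidopa library 2 was 56.3 and 51.4 from the LY-364947 libraries, near the distance within a group, but carbidopa library 1 was 83.4 and 73.5 from them and 69.4 from the other carbidopa library, so it stood apart. By the same edgeR test, LY-364947 differed from carbidopa at 2 of 15154 genes (0.0132%), Col1a1 and Actn4, both higher with LY-364947 and named after their values were seen, and 1367 genes had an unadjusted p under 0.05. CHIR-99021 was higher than carbidopa at 1003 genes (6.62%) and lower at 1224 (8.08%). The carbidopa level is therefore given beside the main results, and the comparisons share libraries.

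**Figure D1:**
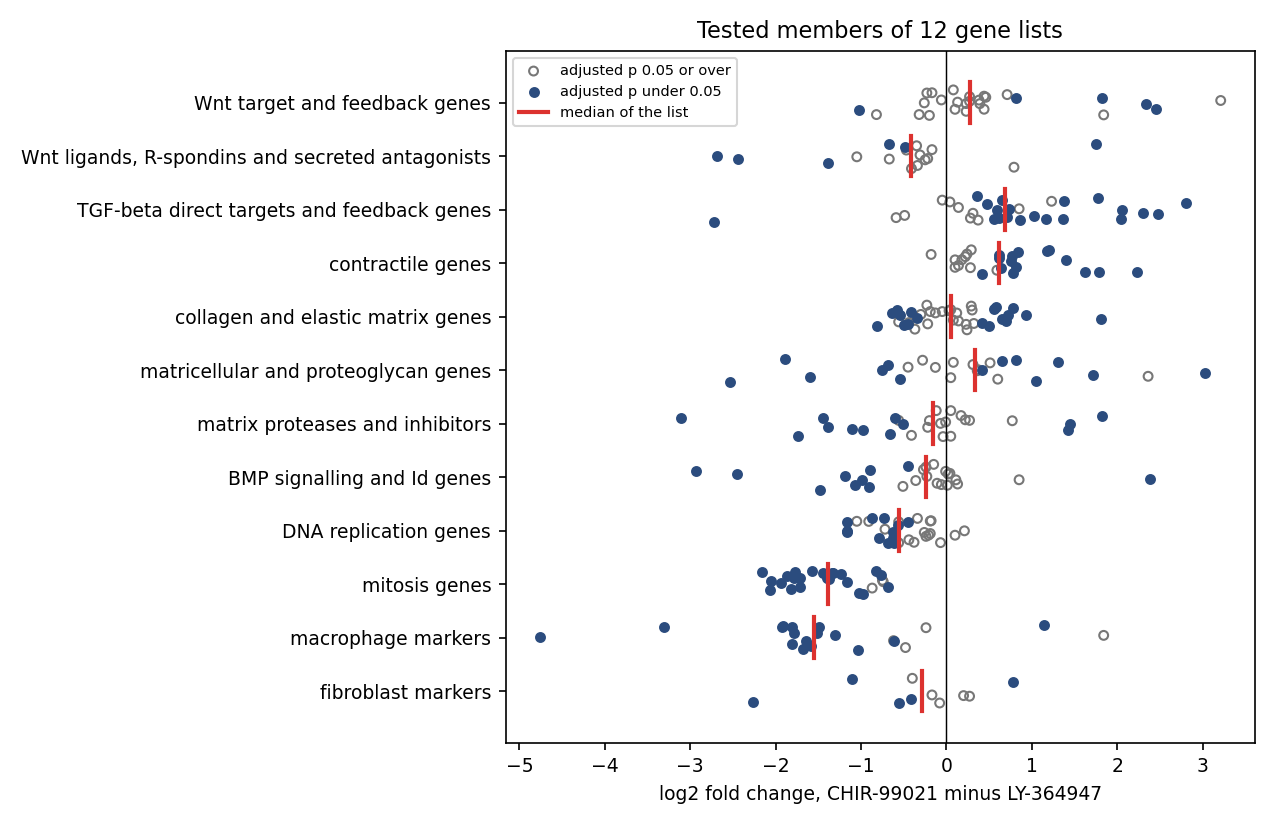
Log2 fold changes of CHIR-99021 minus LY-364947 (x axis) for the tested members of 12 gene lists (y axis), 1 point per gene, filled where the edgeR adjusted p was under 0.05 and open elsewhere, with a red line at the list's median. Medians were 0.68 for TGF-beta targets and 0.62 for contractile genes, 0.27 for Wnt targets, -1.38 for mitosis genes and -1.55 for macrophage markers.

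The genes of the compounds' own targets did not differ detectably. Gsk3a, 1 of the 2 GSK3 genes, was at 1541 and 1551 normalized counts with CHIR-99021 and 1409 and 1450 with LY-364947. Gsk3b was at 4067 and 4555 against 4795 and 4390, with overlapping groups. Ctnnb1, the gene of beta-catenin, was at 12057 and 12369 against 11299 and 11723, a log2 fold change of 0.10 ± 0.09 (SE). These 3 genes had edgeR adjusted p values of 0.424, 0.734 and 0.52, and none of them passed. Tgfbr1, the receptor kinase that LY-364947 inhibits, was at 762 and 934 with CHIR-99021 and 1027 and 892 with LY-364947 (adjusted p = 0.499), and Tgfbr2, its partner, at 3903 and 4056 against 4243 and 3997 (adjusted p = 0.83). Both receptor genes were lower than in MEFs with either compound, Tgfbr1 by log2 fold changes of -1.33 and -1.17. Smad2 and Smad3, which carry the receptor's signal, had log2 fold changes of 0.02 and -0.01 between the compounds.

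Most direct targets and feedback genes of TGF-beta were higher with CHIR-99021 than with LY-364947. Of 30 listed genes, all 30 were tested, 19 were higher with CHIR-99021 and 1 lower, against 6.45% and 7.69% of all genes, and their median log2 fold change was 0.68. Ctgf, a secreted matrix-associated protein, was at 3159 and 3031 against 460.1 and 654, a 5.6-fold difference (log2 fold change 2.48 ± 0.16, SE; edgeR adjusted p = 1.46e-05). Skil, a repressor that binds SMADs and is induced as feedback, was at 2158 and 2471 against 491 and 454, a 4.93-fold difference (log2 fold change 2.30 ± 0.11, SE; edgeR adjusted p = 2.91e-06), with MEFs at 1929 and 2068. For Skil, the CHIR-99021 libraries were just above the MEF range and the LY-364947 libraries close to carbidopa, at 435 and 459. Ltbp2, a matrix protein related to the binding proteins of latent TGF-beta, was at 2956 and 2557 against 617 and 730.2, a 4.12-fold difference. Angptl4, a secreted inhibitor of lipoprotein lipase, was at 2103 and 1854 against 413 and 542, and both compounds were above MEFs, at 67.4 and 69.1.

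Some feedback inhibitors of the pathway were among the higher genes. Smad7, which blocks the receptor, was at 827 and 831 normalized counts with CHIR-99021 and 351 and 391 with LY-364947, with MEFs at 1660 and 1538, a 2.25-fold difference between the compounds. Ldlrad4, a membrane protein that keeps SMADs from the receptor, was at 338 and 271 against 78 and 102. Pmepa1, which has a like role, was at 6444 and 6437 against 3504 and 3646. The log2 fold changes of these 3 genes were 1.17, 1.77 and 0.86 (edgeR adjusted p = 1.13e-04, 2.63e-04 and 4.88e-04). Adam12, a membrane metalloprotease, Bhlhe40, a transcriptional repressor, and Junb, a subunit of AP-1, were higher by 2.57, 2.05 and 2.58-fold. Differences under 2-fold were called for Thbs1, Hmga2, Tgif1, Tgfb1i1, Bambi, Nox4, Smurf1 and Ski, from 1.66-fold for Thbs1, a matricellular activator of latent TGF-beta, to 1.28-fold for Ski, a SMAD corepressor. The call for Junb was lost without CHIR-99021 library 1 or LY-364947 library 1, that for Hmga2 without either library 2, and those for Thbs1 and Tgfb1i1 without LY-364947 library 1. Calls for Bambi, Nox4, Smurf1 and Ski were lost without each of the 4 libraries except that Nox4 kept its call without CHIR-99021 library 1.

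The exception in direction was Tgfbi, a secreted adhesion protein, at 91.9 and 67.1 normalized counts with CHIR-99021, 529 and 526 with LY-364947, 503 and 502 with carbidopa and 1625 and 1450 in MEFs. It was 6.57-fold lower with CHIR-99021 (log2 fold change -2.72 ± 0.15, SE; edgeR adjusted p = 6.89e-06). The CHIR-99021 libraries were the lowest of the 8. The 10 listed genes that did not pass were Il11, Scx, Timp1, Snai1, Cdkn2b, Tsc22d1, Smurf2, Cdh2, Smad6 and Itga11, with log2 fold changes from 1.23 for Il11 to -0.59 for Itga11. Against MEFs, 22 of the 30 genes were lower with LY-364947 and 5 higher, and 13 were lower with CHIR-99021 and 8 higher, with medians of -1.12 and -0.27. Over all genes tested, 17.2% were lower and 13.7% higher with LY-364947 than in MEFs, and 20.1% lower and 18.7% higher with CHIR-99021. CHIR-99021 was higher than carbidopa at 19 and lower at 1, against 6.62% and 8.08% of all genes. Between LY-364947 and carbidopa 0 of the 30 were called, with a median log2 fold change of -0.01. Over all genes tested 0.0132% were called, so a count of 0 does not set this list apart. Without LY-364947 library 1, 12 of the 30 were higher with CHIR-99021 than with LY-364947.

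**Figure D2:**
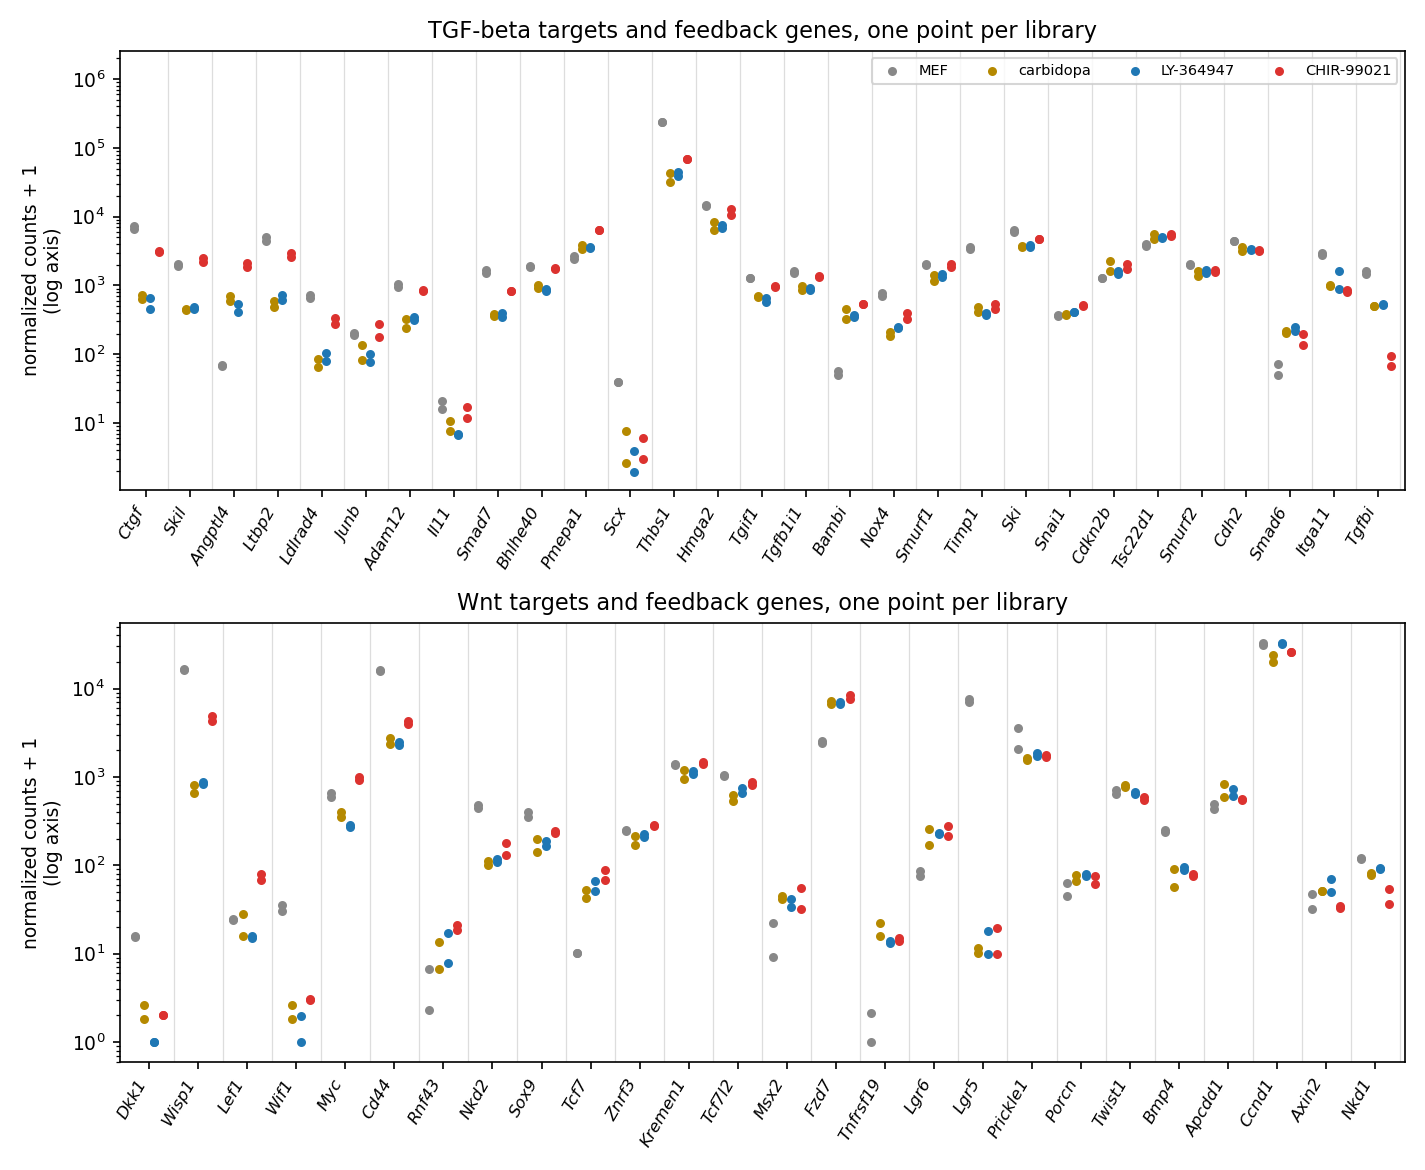
Normalized counts plus 1 (y axis, log scale) of tested TGF-beta target and feedback genes (upper panel) and tested Wnt target and feedback genes (lower panel), 1 point per library, in order of the log2 fold change. Red points (CHIR-99021) lie above blue points (LY-364947) for Ctgf to Adam12 in the upper panel, and for Axin2 and Nkd1, at the right of the lower panel, below them.

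Ligands and latency proteins of TGF-beta were divided. Of 29 tested genes for ligands, receptors, Smads and latency proteins, 7 were higher with CHIR-99021 and 3 lower (34.5% called, against 14.1% of all genes). The median log2 fold change was 0.02. Tgfb1, the main ligand, was at 1529 and 1404 normalized counts against 804 and 811 with LY-364947, and at 0.87 ± 0.12 (SE) on the log2 scale. Tgfb3 was at 859 and 808 against 499 and 535, a 1.63-fold difference. Itgb5, an integrin subunit that takes part in freeing latent TGF-beta, was at 5250 and 4714 against 2776 and 2909. For Tgfb1, Tgfb3 and Itgb5 the edgeR adjusted p values were 0.0013, 0.00171 and 8.54e-04. Nrros, which anchors latent TGF-beta on myeloid cells, was lower, at 19 and 24.4 against 55.3 and 64.5, a call lost without CHIR-99021 library 1. Tgfb2 did not pass and had overlapping groups, at 1675 and 1971 against 2006 and 1819.

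Most contractile genes were higher with CHIR-99021. Of 25 tested, 15 passed, all higher with CHIR-99021, against 6.45% of all genes, and the median log2 fold change was 0.62. Lmod1, an actin nucleator of smooth muscle, was at 891 and 690.5 normalized counts against 206 and 255 with LY-364947, a 3.45-fold difference. Cnn1, calponin of smooth muscle, was at 202 and 158 against 38.5 and 38.3, a 4.71-fold difference, with MEFs at 345 and 354. Myl9, a regulatory light chain of myosin, was at 2333 and 1891 against 587 and 801. Tagln, an actin-binding protein of smooth muscle, was at 10128 and 9120 against 3281 and 4089, a log2 fold change of 1.40 ± 0.16 (SE; edgeR adjusted p = 3.34e-04). The 4 genes were taken for their small p. Like 64.3% of all genes tested, they did not overlap between compounds, and the LY-364947 libraries were the lower ones in each. Acta2, the smooth muscle actin that is the usual marker of myofibroblasts, did not follow them. It was at 2329 and 1659 with CHIR-99021 and 2003 and 1639 with LY-364947, overlapping, with MEFs at 38411 and 35172 (log2 fold change between compounds 0.14 ± 0.16, SE; edgeR adjusted p = 0.594). Acta1, the skeletal muscle actin, was at 103 and 83.4 against 4.94 and 3.74, a 21.2-fold difference. Actin genes are close in sequence, and how reads that match more than 1 of them were counted is not given in the sources used here. CHIR-99021 was higher than carbidopa at 15 of the 25 contractile genes, against 6.62% of all genes. Between LY-364947 and carbidopa 0 of the 25 were called, against 0.0132% of all genes, with a median log2 fold change of -0.12. A count of 0 thus does not set this list apart. The number higher than with LY-364947 was 9 without LY-364947 library 1.

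Matrix genes went both ways. Of 37 collagen and elastic fibre genes, 10 were higher with CHIR-99021 and 8 lower (48.6% called, against 14.1% of all genes). The median log2 fold change was 0.05. Fbln2, a matrix glycoprotein, was at 17950 and 16492 normalized counts against 4691 and 5200 with LY-364947, a 3.51-fold difference. Lox, which crosslinks collagen and elastin, was at 33081 and 36334 against 19093 and 17651, a 1.9-fold difference. On the other side, Col14a1, a collagen that binds fibrils, was at 1015 and 1077 against 1974 and 1730, and Efemp1, fibulin-3, at 14463 and 16602 against 25007 and 23896. The edgeR adjusted p values of these 4 genes were from 8.18e-06 to 0.00238. Col1a1, the main chain of collagen I, had 24068 and 24281 against 39256 and 29790, a 1.42-fold lower level with CHIR-99021, with carbidopa at 12002 and 11779. Carbidopa was not near LY-364947 for this gene.

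Of 24 tested matricellular and proteoglycan genes, 7 were higher with CHIR-99021 and 6 lower (54.2% called, against 14.1% of all genes). Aspn, a small leucine-rich proteoglycan, was at 68.9 and 112 against 10.9 and 11.2, an 8.16-fold difference. Bgn, biglycan, was at 17828 and 20747 against 9614 and 9133. Cyr61, a CCN family protein like Ctgf, was at 5720 and 5317 against 1530 and 1840, a 3.3-fold difference. Prelp, another leucine-rich proteoglycan, went the other way, at 198 and 219.7 against 1242 and 1208, 5.82-fold lower with CHIR-99021. Members of the same protein family, Aspn, Bgn and Prelp, thus differed in direction.

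Of 26 tested matrix proteases and inhibitors, 9 were lower, 3 higher and 14 did not pass, against 7.69% lower and 6.45% higher over all genes, and the median log2 fold change was -0.16. Mmp9, a gelatinase made in quantity by myeloid cells, was at 40 and 24.4 normalized counts against 282 and 281, an 8.65-fold difference, with MEFs at 17.2 and 12.7 and carbidopa at 370.2 and 374. Adamts5, an aggrecanase, was at 1091 and 1187 against 3183 and 3057. Mmp3, stromelysin, was at 99.9 and 111 against 392 and 316. Adamts2, the procollagen N-proteinase, was at 468 and 439 against 943 and 1036. The edgeR adjusted p values of the 4 genes were from 2.01e-05 to 1.49e-04. Plaur, the receptor of urokinase, was among the 3 higher genes, at 493 and 427 against 118 and 144.

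Wnt targets and feedback genes included Lef1, Wisp1 and Myc, which were higher with CHIR-99021. Of 32 listed genes, 27 were tested, 4 were higher with CHIR-99021 and 1 lower. The share called was 18.5%, against 14.1% of all genes (6.45% higher and 7.69% lower), and the median log2 fold change was 0.27. Lef1 (chr3:131110471-131224356, mm10), a DNA-binding partner of beta-catenin that is itself a target, was at 67.9 and 78.3 normalized counts with CHIR-99021, 14.8 and 14 with LY-364947, 27.1 and 14.8 with carbidopa and 23.8 and 23 in MEFs. The CHIR-99021 libraries were the highest of the 8, 5.08-fold above LY-364947 (log2 fold change 2.34 ± 0.34, SE; edgeR adjusted p = 0.00151). Wisp1, a CCN family protein and Wnt target, was at 4344 and 4885 against 830.3 and 874, a 5.45-fold difference. Its level in MEFs was 16379 and 16723, so both compounds lay below MEFs and LY-364947 lay lower. Myc, a transcription factor of cell growth, was at 1009 and 920.3 with CHIR-99021, 268 and 283 with LY-364947 and 648 and 589 in MEFs, a 3.53-fold difference. Cd44, the hyaluronan receptor, was at 3979 and 4323 against 2467 and 2294, a 1.76-fold difference.

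The negative feedback genes that are the usual readout of beta-catenin did not pass as higher. Axin2 was at 32 and 33.6 normalized counts with CHIR-99021 and 48.4 and 68.3 with LY-364947, against 46.3 and 31.1 in MEFs, a log2 fold change of -0.82 ± 0.29 (SE; edgeR adjusted p = 0.0876). Nkd1, an inhibitor of Dishevelled, was at 53 and 35.6 against 88.9 and 92.6, 2.03-fold lower with CHIR-99021 (edgeR adjusted p = 0.015). Its call was lost without CHIR-99021 library 2 and without either LY-364947 library. Znrf3, which removes Frizzled receptors from the membrane, was at 288 and 275 against 223 and 209 (adjusted p = 0.112), and its relative Rnf43 was at 20 and 17.3 against 6.91 and 15.9. Neither passed. Tcf7, a TCF factor and target, was at 67.9 and 86.4 against 65.2 and 49.6 with MEFs at 9.25 and 9.22, so it was above MEFs with both compounds and did not pass between them. Lgr5, a receptor of R-spondins, was at 8.99 and 18.3 against 8.89 and 16.8, with MEFs at 7068 and 7547. Dkk1, a secreted antagonist, had a raw count of at most 1 in the 4 libraries. Notum, Sp5, Dkk4, Cdx1 and Msx1 were too low to be tested. The highest raw count of Sp5, a target of beta-catenin in many cell types, was 1 in any library, and Dkk4 had no read in any library, a count of 0 that is compatible with up to 3 reads. The number of Wnt targets higher with CHIR-99021 was 9 without carbidopa library 1 and 7 with the 4 libraries alone. In these fits 2245 of 15836 and 1810 of 14467 genes tested were higher, against 978 of 15154 in the main fit.

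Of 17 tested secreted Wnt proteins and antagonists, 1 was higher with CHIR-99021 and 5 lower (35.3% called, against 14.1% of all genes). The median log2 fold change was -0.41. Sfrp1, which binds and sequesters Wnt proteins, was at 2857 and 3050 normalized counts against 7896 and 7745, a log2 fold change of -1.39 ± 0.13 (SE; edgeR adjusted p = 1.13e-04). Rspo2, an R-spondin that enhances Wnt signals, was at 2 and 5.08 against 24.7 and 22.4, and Dkk3, a Dickkopf family protein, at 1197 and 1189 against 1664 and 1718. Wnt10b, a ligand of the beta-catenin branch, was at 66.9 and 65.1 against 15.8 and 23.4, and was the 1 higher gene. The call for Dkk3 was lost without any 1 of the 4 libraries, that for Rspo2 without CHIR-99021 library 1 and that for Wnt10b without LY-364947 library 1. Of 30 tested genes of the destruction complex and receptors, 3 were higher and 1 lower (13.3% called), a share near the 14.1% of all genes. Ror2 and Ror1, related receptors of Wnt5a, differed in opposite directions, Ror2 at 449 and 466 against 179.7 and 229 and Ror1 at 111 and 107 against 248 and 210.4. The remaining calls were Fzd1, a Frizzled receptor, and Bcl9l, a cofactor of beta-catenin, higher by 1.38-fold and 1.32-fold, and both calls were lost without any 1 of the 4 libraries. That of Ror1 was lost without either CHIR-99021 library or LY-364947 library 1.

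Glycogen genes, the other arm of GSK3, showed 2 higher and 3 lower among 22 tested (22.7% called, against 14.1% of all genes), with a median log2 fold change of 0.01. Gys1, glycogen synthase of muscle and most tissues, was at 703 and 732 normalized counts against 520.3 and 536, a 1.37-fold difference (edgeR adjusted p = 0.0191). Gyg, glycogenin, which primes the chain, was at 2747 and 2981 against 5735 and 5461, 1.94-fold lower. Ppp1r3c, which targets a phosphatase to glycogen, was at 28 and 16.3 against 63.2 and 52.4. The call for Gys1 was lost without any 1 of the 4 libraries, and that for Ppp1r3c without each of them except CHIR-99021 library 1. RNA levels do not show the phosphorylation state of glycogen synthase, through which GSK3 acts on it.

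Of 25 tested BMP genes, 9 were lower with CHIR-99021, 1 was higher and 15 did not pass, against 7.69% lower and 6.45% higher over all genes, with a median log2 fold change of -0.24. Gdf10, a BMP family ligand, was at 606 and 749 normalized counts against 3854 and 3595, a 5.45-fold difference, with both compounds above MEFs by log2 fold changes of 3.31 and 5.76. Bmp3, a ligand that opposes other BMPs, was at 49 and 42.7 against 368 and 340.3, 7.65-fold lower (edgeR adjusted p = 1.29e-05). Id2, a target of BMP signals, was at 349 and 431 against 842 and 809. The other Id targets Id1 and Id3 did not pass, with log2 fold changes of 0.02 and 0.11.

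Most genes of mitosis were lower with CHIR-99021 than with LY-364947. Of 26 tested, 23 passed, all lower, against 7.69% of all genes, and the median log2 fold change was -1.38. Mki67, the proliferation antigen, was at 258 and 272 normalized counts with CHIR-99021 and 1073 and 872 with LY-364947, 3.65-fold lower (log2 fold change -1.87 ± 0.17, SE; edgeR adjusted p = 1.13e-04). Ccna2, the cyclin of S phase and entry into mitosis, was at 89.9 and 107 against 366 and 318, 3.45-fold lower. Top2a, which untangles chromosomes, was at 213 and 268 against 724 and 717. Ube2c, the ubiquitin-conjugating enzyme of the anaphase-promoting complex, was at 32 and 28.5 against 149 and 123, 4.45-fold lower. The CHIR-99021 libraries lay below the LY-364947 libraries for each of these 4 genes, and 64.3% of all genes tested had no overlap in either direction. The 3 that did not pass were Cdc20, Aurka and Mybl2, with log2 fold changes of -0.87, -0.75 and -0.74, so all 26 were below 0. Against MEFs, 26 of 26 were lower with CHIR-99021 and 3 of 26 with LY-364947, with medians of -1.76 and -0.26. Over all genes tested, 20.1% were lower than in MEFs with CHIR-99021 and 17.2% with LY-364947. CHIR-99021 was below carbidopa at 23 of the 26, against 8.08% of all genes. Between LY-364947 and carbidopa 0 of the 26 were called, against 0.0132% of all genes, with a median log2 fold change of 0.15. A count of 0 thus does not set this list apart.

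Fewer genes of DNA replication passed. Of 29 tested, 12 passed, all lower with CHIR-99021, against 7.69% of all genes, and 17 did not pass, with a median log2 fold change of -0.56. Rrm1 and Rrm2, the subunits of ribonucleotide reductase, were at 1168 and 1235 against 1992 and 1890 and at 359.7 and 372 against 718 and 559. Ccne2, a cyclin of the start of S phase, was at 109 and 136 against 292 and 261, 2.24-fold lower, and its relative Ccne1 was 1.53-fold lower. The call for Rrm2 was lost without CHIR-99021 library 1 or LY-364947 library 1, that for Ccne2 without CHIR-99021 library 1 and that for Ccne1 without each of the 4 except CHIR-99021 library 2. Without 1 of the 4 libraries the number of calls in this list was 1 to 5, so the count rests on all 4. The replicative helicase genes Mcm2, Mcm3, Mcm4, Mcm6 and Mcm7 did not pass, with log2 fold changes from 0.21 to -0.34. Of 13 D cyclins, cyclin-dependent kinases and inhibitors, 1 was higher, 2 were lower and 10 did not pass (23.1% called, against 14.1% of all genes). Cdkn1a, which encodes p21, was 1.43-fold higher with CHIR-99021, at 14705 and 15310 against 10932 and 10268. Cdkn1c and Cdkn2c, inhibitors of the same kind, were 1.87-fold and 1.96-fold lower. The calls for Cdkn1a and Cdkn2c were lost without any 1 of the 4 libraries. Ccnd1, the D cyclin and Wnt target, did not pass at a log2 fold change of -0.32.

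**Figure D3:**
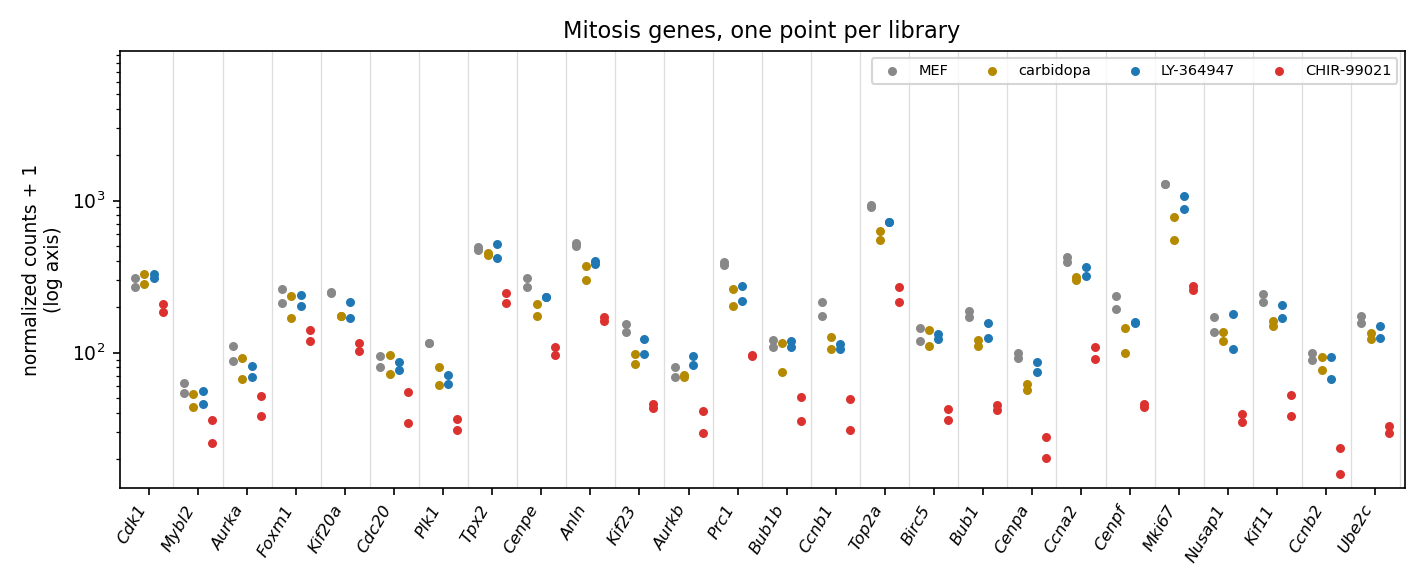
Normalized counts plus 1 (y axis, log scale) of the 26 tested mitosis genes, 1 point per library, in order of the log2 fold change. Red points (CHIR-99021) lie below blue points (LY-364947), from Cdk1 at 183 and 209 against 329.8 and 309 to Ube2c at 32 and 28.5 against 149 and 123.

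The promoters of mitosis genes are known for the cell cycle homology region (CHR), which is bound by repressor complexes in resting cells. The 250 bases before the RefSeq start (assembly GRCm38.p6) were searched on both strands for the CHR letters TTTGAA. This choice was made after the values were seen. The share with these letters is a property of the genes listed and does not depend on the compounds. A part of the letters in the lower levels was not tested. Of 21 mitosis genes with a promoter in the table, 8 (38.1%) held them, against 12.9% of 10706 tested genes with a promoter. The 8 were Ccnb2, Cdc20, Cdk1, Kif11, Mki67, Prc1, Top2a and Ube2c. Among replication genes the share was 3 of 23 (13%). The promoters of 3 of the genes described above follow, 5′ to 3′ on the strand of the gene, with the match in capitals, reading TTCAAA where it lies on the other strand. They are shown because these genes had small p-values in the list and hold the motif. Mki67 is at chr7:135716380-135716629 on the minus strand, Top2a at chr11:99024190-99024439 on the minus strand and Ube2c at chr2:164769679-164769928 on the plus strand.
Mki67: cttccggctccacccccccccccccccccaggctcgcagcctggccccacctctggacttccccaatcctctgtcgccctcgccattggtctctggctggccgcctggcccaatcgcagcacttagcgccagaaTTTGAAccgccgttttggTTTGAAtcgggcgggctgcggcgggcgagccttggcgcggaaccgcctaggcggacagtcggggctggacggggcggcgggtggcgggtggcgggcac
Top2a: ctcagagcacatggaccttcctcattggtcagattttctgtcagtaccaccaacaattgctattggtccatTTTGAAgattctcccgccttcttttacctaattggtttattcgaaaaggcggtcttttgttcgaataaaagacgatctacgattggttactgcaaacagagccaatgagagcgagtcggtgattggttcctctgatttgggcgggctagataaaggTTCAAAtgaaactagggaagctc
Ube2c: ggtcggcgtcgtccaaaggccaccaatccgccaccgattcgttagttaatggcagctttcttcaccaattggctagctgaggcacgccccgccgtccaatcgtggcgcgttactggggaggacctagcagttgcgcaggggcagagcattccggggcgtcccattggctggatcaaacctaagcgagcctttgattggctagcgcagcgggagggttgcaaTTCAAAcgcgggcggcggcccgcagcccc
Mki67 has 2 matches, Top2a 1 on each strand and Ube2c 1. The matches are letters in a window and do not show binding. For Wnt targets, the TCF/LEF letters CTTTGAT and CTTTGAA, the second of which contains the CHR letters, were found in 2 of 17 promoters (11.8%), those of Dkk1 and Tnfrsf19, against 6.41% of all. These letters were also found in 3 of 21 mitosis promoters (14.3%) and 2 of 16 promoters of TGF-beta targets (12.5%). For TGF-beta targets, the SMAD letters CAGACA were found in 4 of 16 (25%), those of Nox4, Smurf1, Tgif1 and Tsc22d1, against 16.1%.

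Most markers of macrophages were lower with CHIR-99021. Of 22 markers, 20 were tested, 15 were lower and 1 was higher, against 7.69% lower and 6.45% higher over all genes. The median log2 fold change was -1.55. Mrc1 (chr2:14229392-14332057, mm10), the mannose receptor, was at 9.99 and 13.2 normalized counts with CHIR-99021, 321 and 318 with LY-364947, 402 and 459 with carbidopa and 711 and 872 in MEFs. It was 27.1-fold lower (log2 fold change -4.76 ± 0.22, SE; edgeR adjusted p = 2.52e-06). Lyz2, lysozyme M, was at 830.3 and 943 against 2480 and 2525, a gene whose reads may be shared with its near copy Lyz1. Fcer1g, an adaptor of Fc receptors, was at 53 and 42.7 against 187 and 178, and C1qb, a subunit of complement C1q, at 74.9 and 72.2 against 269 and 251. The CHIR-99021 libraries were the lowest of the 8 for each of these 4 genes. Summed over the 22 markers, the level was 117 and 122 CPM with CHIR-99021, 323 and 340.3 with LY-364947, 470.2 and 438 with carbidopa and 1282 and 1289 in MEFs. All treated groups were thus below MEFs and CHIR-99021 was lowest. Trem2, a receptor of myeloid cells, was the 1 higher marker, at 46 and 38.6 against 22.7 and 15.9. Cx3cr1 and Cd163, defining markers of macrophage subsets, were at or near 0 in all 4 libraries, with raw counts of at most 3 and 1. Csf1, the growth factor of macrophages, was itself higher with CHIR-99021, at 9712 and 8564 against 4504 and 4890, 1.96-fold.

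**Figure D4:**
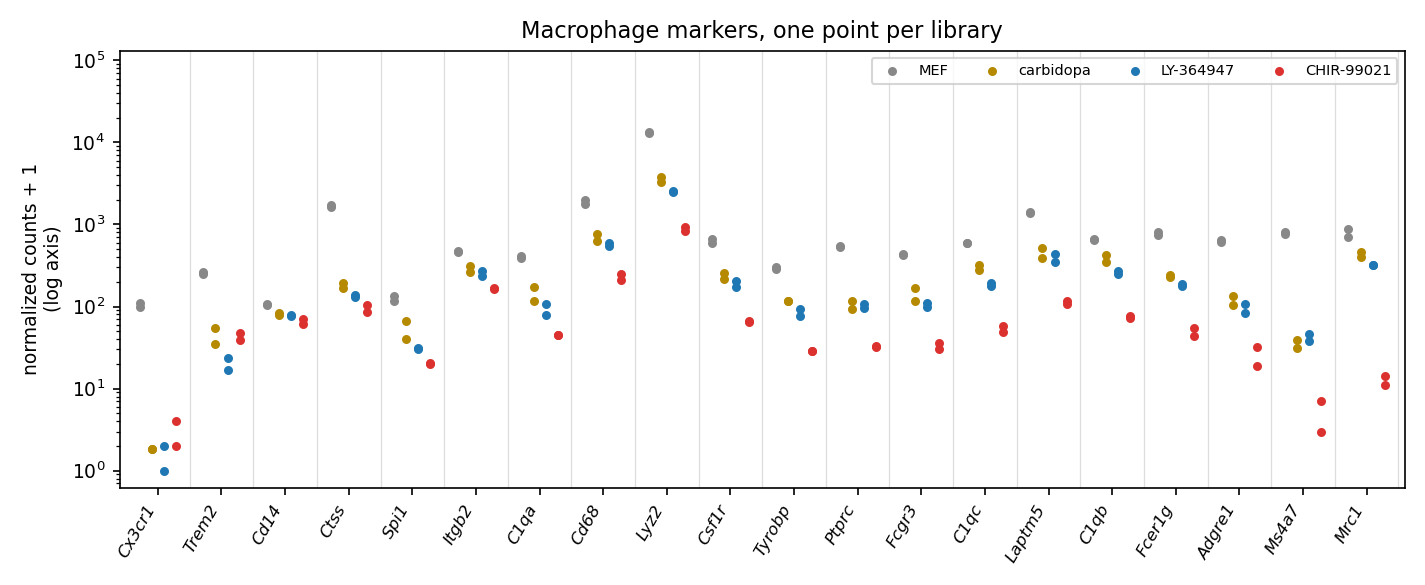
Normalized counts plus 1 (y axis, log scale) of the 20 tested macrophage markers, 1 point per library, in order of the log2 fold change. Grey points (MEF) are at the top for each gene, and red points (CHIR-99021) lie below blue points (LY-364947) except for Trem2 and Cx3cr1, at the left.

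The cells carried fibroblast markers throughout. All 10 fibroblast markers were tested, 1 was higher with CHIR-99021 and 4 lower (50% called, against 14.1% of all genes). Their sum was 3640 and 3535 CPM with CHIR-99021 and 4155 and 4177 with LY-364947, against 8893 and 8716 in MEFs. Dpt, dermatopontin of the matrix, was at 483 and 476 normalized counts against 2453 and 2213, 4.83-fold lower. S100a4 and Thy1 were 2.15-fold and 1.47-fold lower, and Pdgfrb, the PDGF receptor of mesenchymal cells, was 1.72-fold higher. Vim, Pdgfra, Fap, Twist2 and Prrx1 did not pass. The labels name the treated cells hepatic-like. Of 15 hepatocyte markers 1 was high enough to be tested. Their sum was 6.54 and 4.52 CPM with CHIR-99021, 10.9 and 11.1 with LY-364947, 14.9 and 11.2 with carbidopa and 6.52 and 6.41 in MEFs. By quantitative PCR, the paper reported higher Alb and Hnf4a than in control MEFs with these compounds. Alb, albumin, was at 5.99 and 7.12 against 7.9 and 9.35 normalized counts, and Hnf4a, a factor that defines hepatocytes, at 6.99 and 8.14 against 9.87 and 8.41. Of the 15, 7 had no read in any of the 4 libraries. Trf, transferrin, the 1 tested, was at 91.9 and 56.9 against 166 and 168, and its call was lost without CHIR-99021 library 2 or either LY-364947 library.

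Other cell types were scarce. Epithelial markers summed to 14 and 11.5 CPM with CHIR-99021, 10.4 and 12.6 with LY-364947, 24.7 and 19 with carbidopa and 5.65 and 4.03 in MEFs. All treated libraries thus lay above MEFs in this sum. Of 6 tested, 33.3% were called, against 14.1% of all genes. Krt18, a keratin, and Cldn4, a claudin, were higher, at 45 and 48.8 against 10.9 and 15 and at 36 and 29.5 against 8.89 and 3.74. The call for Krt18 was lost without either CHIR-99021 library or LY-364947 library 1, and that for Cldn4 with DESeq2 and without CHIR-99021 library 1 or LY-364947 library 2. Epcam and Cdh1, the defining markers, had at most 5 raw counts in the 4 libraries. Endothelial markers summed to 18.7 and 15.5 against 13.6 and 17 CPM. Of 4 tested, 1 was called (25%, against 14.1% of all genes), Tek, lower with CHIR-99021. That call was lost with DESeq2 and without any 1 of the 4 libraries. Of 6 tested Schwann and neural markers, edgeR called 0 and DESeq2 1, and 2 had an unadjusted p under 0.05. Of 4 chondrocyte genes, edgeR and DESeq2 called 0, and 0 had an unadjusted p under 0.05. Of 5 sex-linked genes, edgeR and DESeq2 called 0 and 1 had an unadjusted p under 0.05. With 14.1% of all genes called by edgeR, 0 calls in lists this short does not set them apart.

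The 10 largest rises by the naming rule, which asks for a mean of 100 normalized counts or more in the higher group and no overlap, began with Mfap4, a microfibril-associated matrix protein. It was at 713 and 852 with CHIR-99021, 86.9 and 75.7 with LY-364947, 86.2 and 92.4 with carbidopa and 7397 and 8322 in MEFs, 9.69-fold higher with CHIR-99021 (log2 fold change 3.28 ± 0.14, SE; edgeR adjusted p = 2.24e-06). Among the others were Fabp4, Ctgf, Wisp1, Cd40, Skil, Megf10 and Cnn1. Fabp4, a fatty acid binding protein of adipocytes and macrophages, was at 127 and 123 against 17.8 and 21.5. Megf10, a receptor for engulfment, was at 123 and 114 against 31.6 and 17.8. Of these genes, Mfap4, Ctgf, Wisp1, Megf10 and Cnn1 were below MEFs with both compounds and less so with CHIR-99021.

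The 10 largest falls were Mrc1, Ccl6, Mmp9, Bmp3, Igfbp5, Abi3bp, Pappa2, Tgfbi, Stab1 and Cd180. Ccl6, a chemokine of myeloid cells, was at 71.9 and 64.1 normalized counts with CHIR-99021, 772 and 615 with LY-364947, 872 and 865 with carbidopa and 55.5 and 42.6 in MEFs, 10.1-fold lower. The CHIR-99021 libraries were thus close to MEFs, and the other treated libraries far above. Stab1, a scavenger receptor of macrophages and sinusoidal endothelium, was at 48 and 53.9 against 319.9 and 339, and Cd180, a Toll-like receptor relative of B cells and macrophages, at 11 and 24.4 against 119 and 108. Of these falls, Mrc1, Ccl6, Mmp9, Stab1 and Cd180 are genes made by macrophages. The summed macrophage marker level was 117 and 122 CPM with CHIR-99021, 323 and 340.3 with LY-364947 and 1282 and 1289 in MEFs. The part of this in the falls of these genes was not tested. Genes of stromal cells fell as well. Igfbp5, which binds insulin-like growth factors, was at 558 and 607 against 4532 and 4165, 7.41-fold lower. Pappa2, a protease that cleaves Igfbp5, was at 248 and 305 against 1837 and 1853, with MEFs at 137 and 146, and Abi3bp, a matrix protein, at 22 and 23.4 against 167 and 157.

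Growth factor genes differed on both sides. Of 13 genes of the insulin-like growth factor system, 1 was higher and 3 lower (30.8% called, against 14.1% of all genes). Beside Igfbp5, Igf2, the fetal growth factor, was at 4324 and 4825 normalized counts against 9387 and 8129, and H19, the RNA of the same imprinted locus, was 1.37-fold lower, a call lost without any 1 of the 4 libraries. Igf1 did not pass, at 363 and 446 against 349 and 296. Of 25 FGF, PDGF and EGF genes, 4 were higher and 6 lower (40% called, against 14.1% of all genes). Fgfr1, an FGF receptor, was at 12849 and 12218 against 6473 and 6700. The ligand Pdgfd was at 1304 and 1527 against 3174 and 2982, and the ligand Fgf10 at 24 and 21.4 against 67.1 and 58. The call for Fgf10 was lost without LY-364947 library 1.

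In the following lists, counts stand against 14.1% of all genes called. Of 14 retinoic acid genes, 3 were higher and 2 lower (35.7% called). Rara, a retinoic acid receptor, was at 973 and 819.6 normalized counts against 325 and 331, and Crabp2, which delivers the ligand to the receptor, at 472 and 437 against 141 and 130.0. Cyp26b1, which degrades retinoic acid, was at 3998 and 4268 against 10529 and 9407, 2.39-fold lower. Of 18 Notch and Hedgehog genes, 2 were higher and 1 lower (16.7%), a share near that of all genes. Hes1, a Notch target, was at 686 and 686 against 302 and 299. Hhip, which binds Hedgehog, was 2.01-fold lower, a call lost without any 1 of the 4 libraries. Of 14 prostaglandin genes, 2 were higher and 4 lower (42.9%). Ptgs2, the inducible cyclooxygenase, was at 656 and 731 against 309 and 274, and its constitutive relative Ptgs1 at 705 and 759 against 1253 and 1198. The 2 cyclooxygenases thus differed in opposite directions, by 2.4-fold and 1.66-fold.

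Of 17 tested chemokine and cytokine genes, 4 were higher and 1 lower. Tnfrsf11b, osteoprotegerin, was at 43 and 52.9 normalized counts against 7.9 and 6.54, and Cxcl12, a chemokine of stromal cells, at 1584 and 1674 against 1057 and 1077. Il33, an alarmin, was at 161 and 177 against 461 and 404, 2.54-fold lower. Of 3 tested osteoblast genes, Runx2, the master factor of bone, was 1.66-fold higher, with 9 of the 12 listed too low to test, and its call was lost without each of the 4 libraries except CHIR-99021 library 1. Of 12 tested adipocyte genes, 2 were higher and 3 lower. Beside Fabp4, Lpl, lipoprotein lipase, was at 636 and 750.5 against 1242 and 1240, and Cd36, a fatty acid transporter, at 443 and 477 against 988 and 866. Dlk1, which holds back adipocyte formation, was at 3589 and 3502 against 7098 and 7207. Pparg and Cebpa, the factors of adipocyte formation, did not pass, with log2 fold changes of -0.22 and 0.26.

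Set against MEFs, some genes were called in opposite directions by the 2 compounds and called between them as well. Of these, 22 were above MEFs with CHIR-99021 and below with LY-364947, and 27 were the reverse. By the naming rule, the first kind included Cd40, Mtus1, Myc and Plaur and the second was led by Bmp3, Pamr1, Fgl2, Npy1r and Tgtp1. Mtus1, a microtubule-associated protein, was at 3957 and 4024 normalized counts with CHIR-99021, 1145 and 1123 with LY-364947 and 2225 and 2193 in MEFs. Pamr1, a secreted serine protease-like protein, was at 517 and 521, 2643 and 2923, and 719 and 728, in the same order. The comparisons of each compound with MEFs share the MEF libraries.

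**Figure D5:**
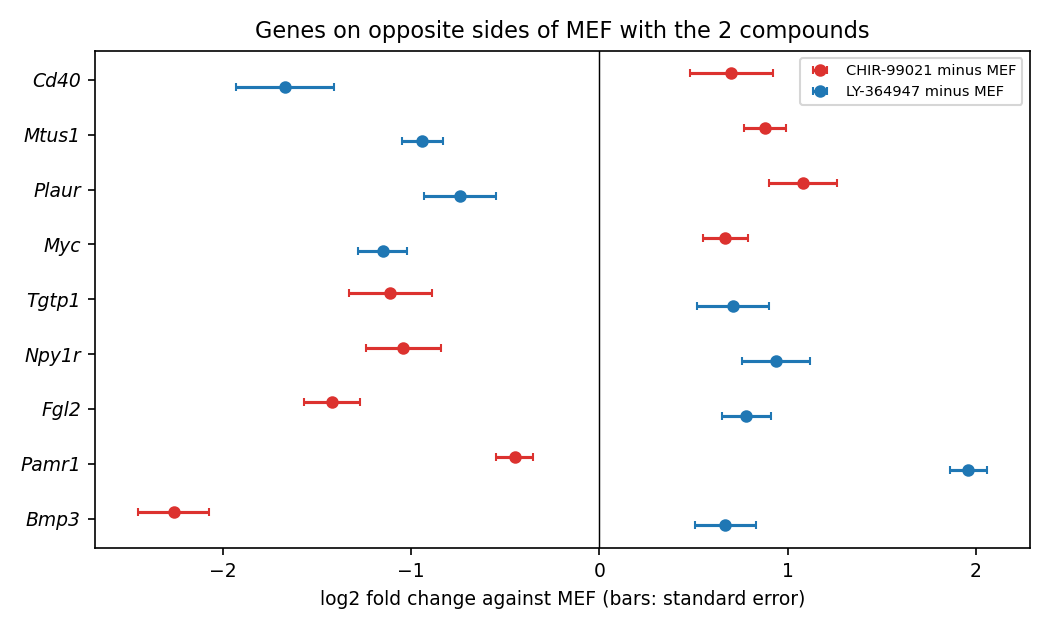
Log2 fold changes against MEFs (x axis, error bars SE) for named genes (y axis) that CHIR-99021 (red) and LY-364947 (blue) put on opposite sides of MEFs. Mtus1 stood at 0.88 and -0.94 and Pamr1 at -0.45 and 1.96.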

How the data were processed

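RNA-seq covered control MEFs and MEFs given 1 of 3 compounds, with 2 libraries per group. The authors aligned reads to mm10 with STAR 2.4.2a and counted them per gene with featureCounts, and they deposited raw counts of reads per gene for 8 libraries. The use of strand and the annotation are not given in the sources used here, so overlapping and near-identical genes are uncertain. The labels and the methods name different library kits. No molecular identifiers are named in the sources used here, so reads may not be independent molecules and the limit that a count of 0 sets covers counting error only. Columns in the table matched the sample titles. Of 50578 gene identifiers, 50354 (99.6%) were in GENCODE M21 of mm10, the source of positions, which may not be the authors' release.

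Counts were fitted in R 4.3.3 with edgeR 4.0.16 (TMM, filterByExpr, quasi-likelihood test, all 8 libraries in one fit, group as the only term), which left 15154 genes, with a biological coefficient of variation of 11%. The contrast was CHIR-99021 minus LY-364947, at a Benjamini-Hochberg adjusted p under 0.05, and SE is the fold change divided by the square root of F. Levels are counts over DESeq2 1.42.0 size factors. The replicates were not 1 library deposited more than once (chi-square per degree of freedom 9.21 and 7.25). The fit was tested on simulated data. Members and gene lists were chosen with earlier results of these data known. Genes named were the 10 largest rises and 10 largest falls without overlap and with a mean of at least 100 normalized counts, both pathway lists, up to 4 members of other lists with the smallest p plus members that did not pass, the compounds' targets, sex-linked genes and the 5 largest on either side of MEFs. Some genes that this rule takes are not reported here. Alternatives were DESeq2, RLE scaling, other filters, fewer libraries, each library left out and a replicate block. Promoters are from RefSeq on GRCm38.p6.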

Additional observations from a re-analysis of the deposited data

Results flagged for a closer look

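The 22 and 27 genes had called effects of the 2 compounds against MEFs of opposite sign. A call between the compounds in the same edgeR fit was a condition of this choice, so it is not a further result. Of these genes, 9 that the naming rule takes are given here. The values here are CHIR-99021 minus LY-364947 log2 differences, all with an adjusted p under 0.05 by that condition. Cd40, a receptor of the TNF family, stood at 2.37 and Mtus1 at 1.83. Myc and Plaur both stood at 1.82. Cd40 was at 146 and 135 normalized counts with CHIR-99021, 24.7 and 29.9 with LY-364947 and 72.7 and 104 in MEFs, so the MEF libraries lay between the compounds.

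On the other side were Bmp3 at -2.93, Pamr1 at -2.41, Fgl2, a secreted fibrinogen-like protein, at -2.19, Npy1r, a receptor of neuropeptide Y, at -1.98 and Tgtp1, an interferon-induced GTPase, at -1.82. Fgl2 was at 107 and 112 normalized counts with CHIR-99021, 539 and 470.3 with LY-364947 and 268 and 327 in MEFs. Npy1r was at 77.9 and 92.5, 384 and 293, and 184 and 174, in the same order. Tgtp1 was at 27 and 32.5, 111 and 102, and 64.8 and 66.8, and its reads may be shared with its near copy Tgtp2. Fgl2 and Tgtp1 are also expressed by immune cells. The summed macrophage markers were 117 and 122 CPM with CHIR-99021, 323 and 340.3 with LY-364947 and 1282 and 1289 in MEFs. Their part in these values was not tested. In all 5 of these genes carbidopa lay above MEFs in normalized counts, as LY-364947 did.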

How the results depend on the processing

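Called genes numbered 1987 with DESeq2, 2131 with RLE scaling, 2863 (1447 higher, 1416 lower) without a filter and 2059 with at least 10 counts in every library. The 4 libraries alone gave 3673 (1810 higher, 1863 lower), of which 2128 were shared with the 2143, and the 6 treated libraries gave 1544, with 642 higher. Without carbidopa replicate 1 there were 4228 (2245 higher, 1983 lower), which included all 2143. Without 1 of the 4 compared libraries there were 663 to 1200 (216 to 546 higher, 416 to 654 lower), and 412 to 629 past 2-fold, against 852 past 2-fold without carbidopa replicate 1. In these fits the lone library of a group is assumed to vary like the others.

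Leaving out 1 of the 4 libraries gave 12 to 15 TGF-beta targets higher, 9 to 12 contractile genes higher, 1 to 5 replication genes lower and 4 Wnt targets higher in each fit. These counts were 22, 18, 17 and 9 without carbidopa replicate 1, where 2245 of 15836 genes tested were higher and 1983 lower. With the 4 libraries alone 7 Wnt targets were higher, beside 1810 of 14467 genes tested. Median log2 fold changes without 1 of the 4 libraries were 0.61 to 0.72 for TGF-beta targets and 0.54 to 0.73 for contractile genes. They were -0.57 to -0.47 for replication genes, -1.60 to -1.44 for macrophage markers and 0.23 to 0.35 for Wnt targets. With at least 10 counts in every library, the TGF-beta median was 0.62 and the ratio of distances 2.02. The cause was not tested.

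Whether the numbers 1 and 2 pair the libraries is not known. The deviations of same-numbered CHIR-99021 and LY-364947 libraries correlated at -0.134 across genes. With 2 libraries per group the 2 deviations mirror each other, so this value cannot decide it. With a replicate block 1973 genes were called, and the calls for Igfbp3 and Ski were lost. The crossed pairing, added after seeing the data, gave 3029 calls, 1538 of them higher. Of 180 named genes, 9 lost their call with the 6 treated libraries and 22 to 29 without 1 of the 4 compared libraries. No named gene called between the compounds changed sign under any alternative run. Named genes that were not called changed sign in single fits. Over the fits that left out 1 library, Eif2s3y ranged from -0.31 to 0.01, Lgr5 from -0.50 to 0.63, Lgr6 from -0.09 to 0.29, Msx2 from -0.21 to 0.57 and Smurf2 from -0.01 to 0.09 in log2 fold change. With 2 libraries per group, genes at few counts, such as Axin2, Rnf43 and Rspo2, carry large errors.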
